A study of Mus musculus with 12 samples.

Results

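Transcript levels of 3 Cited2 -/- mouse embryos whose mothers ate a high-fat diet (knockout high-fat embryos) were set against those of 3 wild-type embryos whose mothers ate a control diet (wild-type control embryos), so that embryos with both insults were compared with embryos that had neither. These 6 embryos were chosen by genotype and maternal diet alone, out of 12 in the study. The other 6 were 3 Cited2 -/- embryos of control-diet mothers (knockout control) and 3 wild-type embryos of high-fat mothers (wild-type high-fat). The strain was C57BL6/J and every embryo was taken at 8.5 days post coitum. All 4 groups came from heterozygous Cited2 mothers mated to heterozygous males, so the mothers of the wild-type embryos also carried a Cited2 null allele. The mothers went on their diet at 6 weeks of age and were mated 8 weeks later. Each embryo was a whole embryo freed of its yolk sac and allantois, matched in stage by its somites, and each gave 1 array. The labels do not say which embryos shared a litter.

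CITED2 is a transcriptional coactivator without a DNA-binding domain. It binds the acetyltransferases CBP and p300, lends them to AP-2 transcription factors, and competes with hypoxia-inducible factor for them. Mice without it are known for heart malformations, left-right patterning defects, neural tube defects and loss of neural crest derivatives. At this stage the heart tube is looping and beginning to beat, somites are forming, the neural tube is closing and neural crest cells leave it. The comparison asks which transcripts of these tissues differ when loss of Cited2 and a high-fat maternal diet come together.

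Between 16765 and 18344 of the 45281 probes were detected on the 6 arrays (detection p under 0.01). The 18296 probes detected on at least 3 of them were tested, which stood for 10248 named genes. A gene that passed this filter only through the group where it is high had to differ, so counts of tested members describe only those members. The arrays were divided into 2 sets at the largest gap in the scatter between beads. That gap was 0.967 points, in a median scatter that ran from 18% to 23.8% over the 12 arrays. The division was made with earlier results of these data known. Set A held knockout high-fat replicates 1 and 2 and wild-type control replicate 1. Set B held knockout high-fat replicate 3 and wild-type control replicates 2 and 3. The first principal component carried 49% of the variance, against 14.2% for the second, and its sign separated the sets completely. Its scores were −42.6, −25.8 and 16.2 in knockout high-fat replicates 1 to 3, against −21.5, 23.2 and 47.7 in wild-type control replicates 1 to 3. The main model had no term for the array set. Knockout high-fat replicate 3 stood apart on the second principal component (40.1, against 0.6 and 12.2 for its fellow replicates and −15.7 to −10.6 in wild-type control embryos), and it alone of the knockout high-fat embryos had detected Cited2 probes (2 of the 3). The mean log2 signal of 3 Y-linked probes was 4.88, 4.84 and 4.68 in knockout high-fat replicates 1 to 3, against 4.88, 5.77 and 6.21 in wild-type control replicates 1 to 3. The Y-linked signal was thus lower on average in the knockout high-fat embryos, and the labels give no sex. The tissue was that of an embryo with heart, neural tube and somites: of the 24 cardiac muscle genes on the array, 17 were detected in all 3 knockout high-fat and 20 in all 3 wild-type control embryos.

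Loss of Cited2 together with the diet left few transcripts past the threshold, and all of them were lower. In limma's moderated test with Benjamini-Hochberg adjustment, 6 probes passed at 0.05, which is 0.0328% of those tested, with 0 higher and 6 lower. They belonged to Cited2 (3 probes), En2, Flrt1 and Cldn10. Counted at each gene's brightest probe, 3 genes passed (0.0293%). Before adjustment 1992 probes had a p under 0.05, with 1142 higher and 850 lower, where chance gives 915. With the array set as a block in the model these were 2392, with 1121 higher and 1271 lower. Which side was larger thus changed with the model. In whole-embryo RNA, fewer cells of a type and less RNA per cell cannot be told apart. The authors' own processed values of the same arrays gave 14 passing probes, 2 higher and 12 lower. With the array set as a block in the model 32 passed (0.175%), 10 higher and 22 lower (at the brightest probe 0.0683% of genes higher and 0.127% lower), and without knockout high-fat replicate 3 the count was 5, all lower.

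Cited2 itself served as the check of the labels. At its brightest probe (ILMN_2477221) the log2 signal was 4.38, 4.57 and 6.85 in knockout high-fat replicates 1 to 3, against 11.32, 11.38 and 11.90 in the wild-type control replicates. The groups lay far apart, and replicate 3 was the highest of the knockouts. The log2 fold change was −6.26 ± 0.50 (SE, limma, adjusted p = 0.000299) and −7.05 without replicate 3. The other probes of Cited2 gave −3.41 ± 0.22 and −3.75 ± 0.23 (limma, adjusted p = 4.4e-05 for each), and the second of these (ILMN_2905866) was detected in 0 of the 3 knockout high-fat embryos. The labels do not place these probes inside or outside the deletion.

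En2, a homeobox gene that patterns the midbrain and anterior hindbrain, had the smallest p of any gene besides Cited2. Its log2 signal was 4.63, 4.41 and 4.58 in the knockout high-fat embryos, against 7.03, 8.00 and 7.24 in the wild-type control embryos. The groups did not overlap, and the probe (ILMN_2726471) was detected in no knockout high-fat embryo and in each wild-type control embryo. En2 was thus tested only through the group where it is high. En2 fell by 2.88 on the log2 scale (SE 0.29, limma, adjusted p = 0.00247). Because of the missing detection it was at least 4.57-fold lower. In this bound each undetected array is set to the lowest signal of any detected probe, or to its own signal where that is higher. The bound, here and below, covers the detection floor in the group means and leaves out the spread between embryos. The difference was −2.51 within array set A and −3.04 within set B, and −2.91 without knockout high-fat replicate 3 (adjusted p = 0.0169).

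Flrt1, a leucine-rich transmembrane protein of the fibronectin-like family that acts in cell adhesion and fibroblast growth factor signalling, passed at the dimmer of its probes. There its log2 signal was 4.82, 4.42 and 4.95 in the knockout high-fat embryos, against 6.31, 6.21 and 6.23 in the wild-type control embryos, with no overlap. This probe was detected in no knockout high-fat embryo and in each wild-type control embryo. Flrt1 was thus tested at this probe only through the group where it is high. It fell by 1.52 (SE 0.19, limma, adjusted p = 0.0144), which is at least 2.03-fold. The brighter Flrt1 probe gave −1.71 ± 0.30 and did not pass (adjusted p = 0.0968). Cldn10, a claudin of tight junctions, had log2 signals of 7.61, 7.67 and 7.24 in the knockout high-fat embryos, against 8.67, 8.62 and 8.54 in the wild-type control embryos. It fell by 1.10 (SE 0.14, limma, adjusted p = 0.0232), or 2.14-fold, and its further probes gave −1.01 each (adjusted p = 0.107). With the Y-linked signal as a covariate, Cited2 and En2 passed (En2 adjusted p = 0.0417), while Flrt1 and Cldn10 did not (0.118 for each). Without knockout high-fat replicate 3 the adjusted p of Cldn10 was 0.0897.

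**Figure D1:**
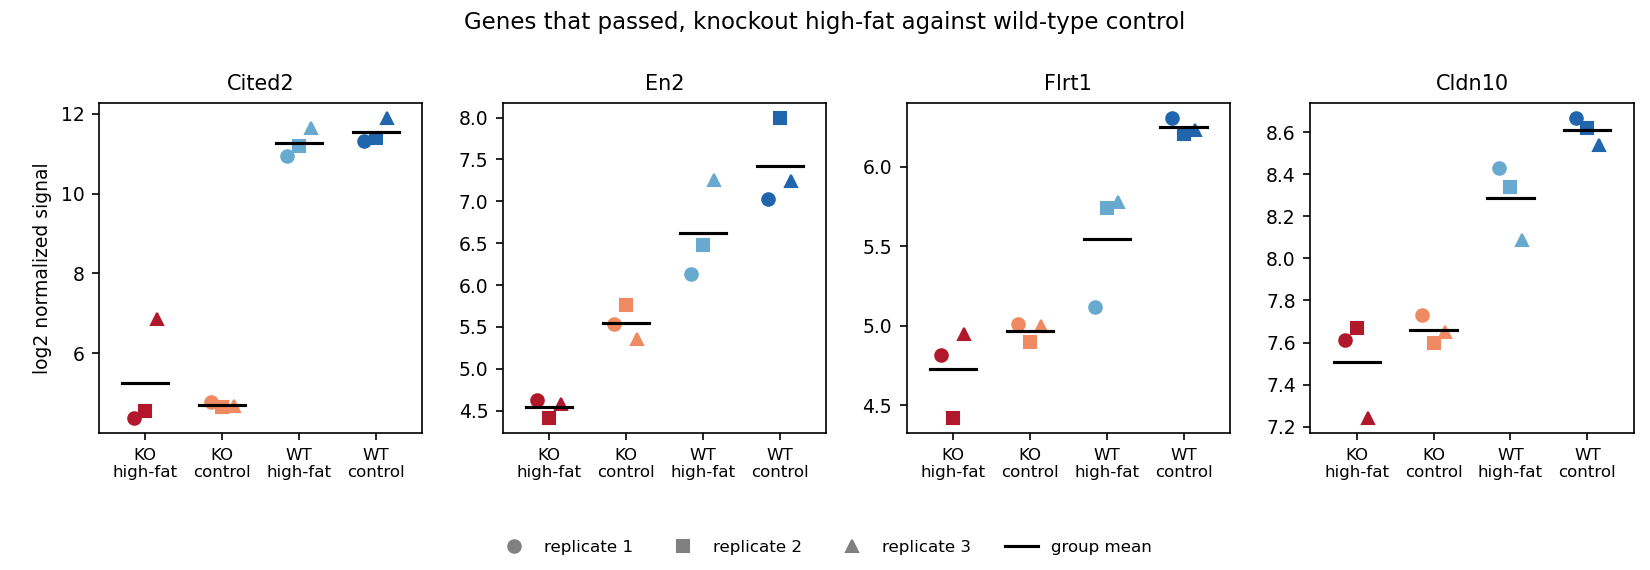
Log2 normalized signal (vertical axis) of the genes with a passing probe in each embryo of the 4 groups (KO, Cited2 -/-; WT, wild type; the diet is the mother's), with symbols for replicates and a line at the group mean. En2 lies between 4.41 and 4.63 in knockout high-fat embryos and between 7.03 and 8.00 in wild-type control embryos, and for Cited2 the knockout high-fat replicate 3 at 6.85 stands above the other knockouts.

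Heart muscle genes lay lower in the knockout high-fat embryos as a group, though none of them passed. The list held 26 genes of the contractile apparatus and of cardiac secretion, of which 21 were tested, and 0 of them passed in limma (15 had an unadjusted p under 0.05, all lower, against 4.44% of all tested genes that were lower and 7.26% that were higher at that p). All 21 had a log2 fold change below 0, against 42.9% of all tested genes. Their median was −0.88, against 0.05 over all tested genes. In 14 of the 21 every knockout high-fat embryo lay below every wild-type control embryo, where 5.67% of all tested genes did so. Of the 17 members detected on all 6 arrays, which did not depend on 1 group to be tested, all 17 were below 0 and 11 did not overlap, against 5.12% of such genes.

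The promoters of 4 of these genes are shown because the genes are textbook markers of the heart chambers and are 4 of the 5 members of the list with the smallest p. They run from 250 bases before to 50 bases after the annotated start on the gene's strand (RefSeq, GRCm38.p6), and capitals mark the letters that match a motif. The motif of the zinc finger factors of the heart was sought as AGATAA alone. The variant TGATAA, which the Nppa, Nppb and Myl7 windows hold, was not sought and is not marked. The motif of the homeobox factor NKX2-5 was sought as AAGTG. The CArG box of serum response factor and the MEF2 motif were sought as well, and each of the 4 motifs was sought on both strands.
Nppa: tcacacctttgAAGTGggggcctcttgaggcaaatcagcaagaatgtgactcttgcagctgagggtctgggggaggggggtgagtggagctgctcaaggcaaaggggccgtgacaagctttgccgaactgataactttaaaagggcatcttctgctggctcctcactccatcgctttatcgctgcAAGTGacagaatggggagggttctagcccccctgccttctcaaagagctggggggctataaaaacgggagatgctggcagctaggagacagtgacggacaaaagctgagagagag
Nppb: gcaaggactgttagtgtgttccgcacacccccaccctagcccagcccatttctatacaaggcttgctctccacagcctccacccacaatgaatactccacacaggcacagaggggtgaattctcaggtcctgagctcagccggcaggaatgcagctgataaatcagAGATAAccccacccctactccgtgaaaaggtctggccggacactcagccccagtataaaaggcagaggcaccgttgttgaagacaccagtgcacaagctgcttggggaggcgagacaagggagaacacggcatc
Myl2: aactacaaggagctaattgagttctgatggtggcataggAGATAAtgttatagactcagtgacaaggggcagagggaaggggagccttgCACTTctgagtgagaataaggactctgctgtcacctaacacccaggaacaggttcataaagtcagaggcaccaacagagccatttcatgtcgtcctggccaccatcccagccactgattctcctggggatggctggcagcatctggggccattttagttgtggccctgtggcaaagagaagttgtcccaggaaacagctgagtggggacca
Myl7: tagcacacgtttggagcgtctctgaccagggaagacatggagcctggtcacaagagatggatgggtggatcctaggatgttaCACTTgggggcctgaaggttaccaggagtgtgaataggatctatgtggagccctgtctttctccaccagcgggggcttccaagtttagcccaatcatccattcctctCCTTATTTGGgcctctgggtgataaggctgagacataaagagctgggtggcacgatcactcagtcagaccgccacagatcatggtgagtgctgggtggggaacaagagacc

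These windows lie at chr4:148000472-148000771 (plus strand) for Nppa, chr4:147985650-147985949 (plus strand) for Nppb, chr5:122092474-122092773 (plus strand) for the first of 2 annotated starts of Myl2, and chr11:5898733-5899032 (minus strand) for Myl7. Nppa held AAGTG at 2 places, Myl2 and Myl7 at 1 each, as do 46.4% of 32851 such windows over the genome. AGATAA was found once in Nppb and once in Myl2 (11.2% of all windows), and a CArG box once in Myl7 (1.63% of all windows). The MEF2 motif, held by 3.19% of all windows, had 0 matches in these 4, and the window at the second Myl2 start had none of the 4 motifs. A match is a run of letters and was not tested as a binding site.

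Nppa and Nppb encode the natriuretic peptides that heart muscle secretes, and Nppa marks the working chambers. The log2 signal of Nppa was 4.85, 4.73 and 4.91 in the knockout high-fat embryos, against 7.30, 7.96 and 7.16 in the wild-type control embryos. That of Nppb was 5.14, 4.79 and 4.83 in the knockout high-fat embryos, against 7.20, 7.78 and 6.78 in the wild-type control embryos. Neither peptide gene was detected in any knockout high-fat embryo, while both were detected in all 3 wild-type control embryos. The log2 fold changes were −2.64 ± 0.65 for Nppa, at least 4.72-fold, and −2.33 ± 0.61 for Nppb, at least 4.06-fold (limma, adjusted p = 0.207 and 0.230). The spread of the single-insult groups was wide for both: Nppa lay at 8.34, 7.17 and 5.51 in knockout control embryos and at 5.10, 6.09 and 7.40 in wild-type high-fat embryos.

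Among the proteins of the contractile apparatus, the ventricular myosin light chain gene Myl2 had log2 signals of 8.99, 8.39 and 7.99 in the knockout high-fat embryos, against 11.08, 10.99 and 11.68 in the wild-type control embryos. Its log2 fold change was −2.79 ± 0.48 (limma, adjusted p = 0.0968, and 0.0408 with the array set as a block). The atrial light chain gene Myl7 had 9.65, 9.49 and 9.53 in the knockout high-fat embryos, against 10.44, 10.67 and 11.40 in the wild-type control embryos. Its log2 fold change was −1.28 ± 0.35 (adjusted p = 0.250). Both light chains were separated between the groups, with the larger difference in the ventricular one, and the difference between them was not tested. Hspb7, a small heat shock protein of heart muscle that guards thin filaments, had 5.30, 5.13 and 4.97 in the knockout high-fat embryos, against 6.55, 6.17 and 6.51 in the wild-type control embryos. It was undetected in all 3 knockout high-fat embryos and detected in all 3 wild-type control embryos (log2 fold change −1.28 ± 0.25, at least 2.26-fold, adjusted p = 0.107). Outside the list, Acta1, the skeletal alpha-actin that the early heart also makes, had 8.70, 8.12 and 7.44 in the knockout high-fat embryos, against 10.15 in each wild-type control embryo (log2 fold change −2.07 ± 0.40, adjusted p = 0.107).

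The sarcomere genes Actn2 (alpha-actinin), Myh6 (alpha myosin heavy chain), Ttn (titin) and Actc1 (cardiac actin) also had all 3 knockout high-fat embryos below the wild-type controls, with log2 fold changes of −1.46, −1.30, −1.14 and −1.08. Dim further probes of Actn2 and Ttn gave 0.18 and 0.06, so the probes of these genes disagree. At the other end of the list stood Atp2a2, the calcium pump of the sarcoplasmic reticulum, at −0.31 and the tropomyosin gene Tpm1, which is not confined to heart muscle, at −0.06. Both of these overlapped between the groups, and a dimmer Atp2a2 probe gave −1.20. The median of the list was −0.67 within array set A, −1.36 within set B and −0.65 without knockout high-fat replicate 3. Knockout high-fat replicate 1 had the smallest difference and replicate 3 the largest: the mean of the list, each gene as a log2 deviation from its mean over the 12 embryos, was −0.27, −0.74 and −1.03 in knockout high-fat replicates 1 to 3, against 0.35, 0.37 and 0.45 in wild-type control replicates 1 to 3.

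**Figure D2:**
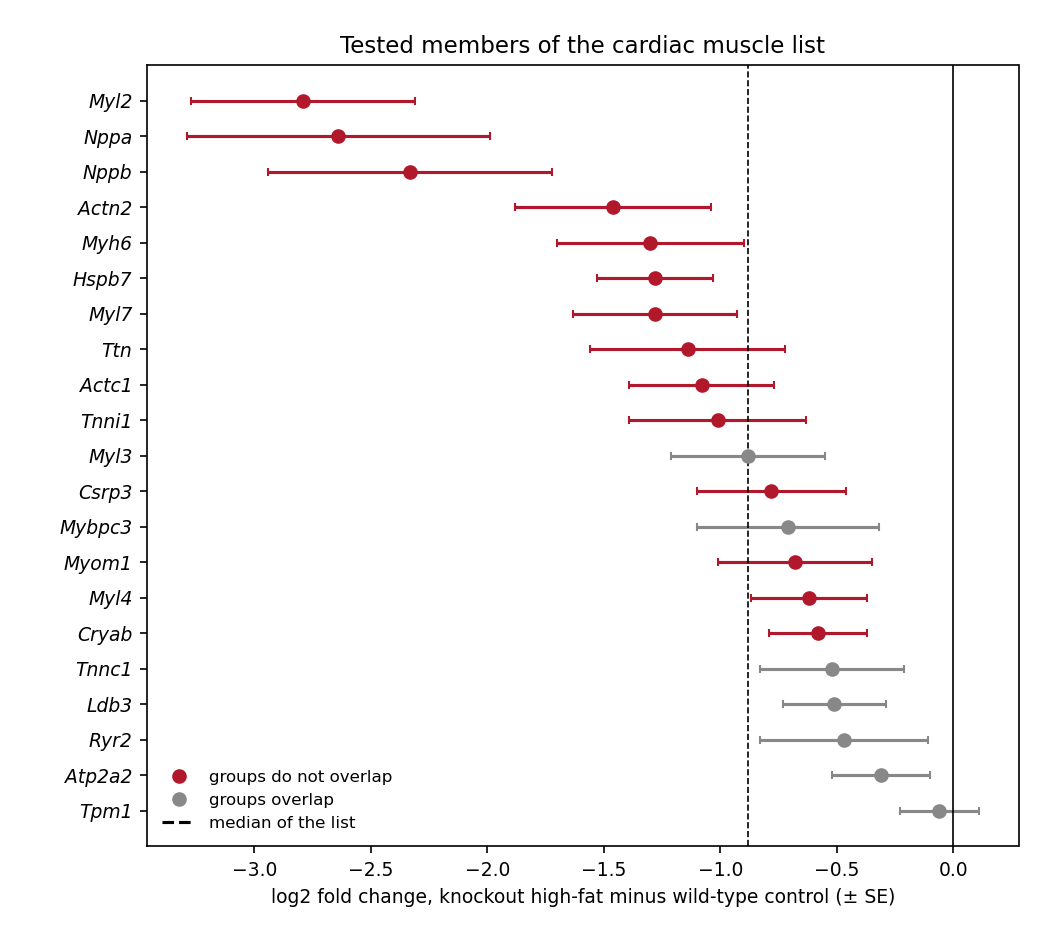
Log2 fold change (horizontal axis, knockout high-fat minus wild-type control, bars are the SE of the model) of the 21 tested genes of the cardiac muscle list, with red points where the 3 and 3 embryos do not overlap and grey points where they do. All 21 lie below 0, between −2.79 for Myl2 and −0.06 for Tpm1, and the dashed line marks the median of −0.88.

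Transcription factors of the heart had both signs. Of 18 listed genes 17 were tested and 0 passed in limma (3 higher and 1 lower with an unadjusted p under 0.05, against 7.26% and 4.44% of all tested genes), and the median was 0.03, with 8 below 0 and 9 above. The homeobox gene Nkx2-5, a marker of cardiac progenitors and heart muscle, had log2 signals of 7.65, 7.52 and 6.92 in the knockout high-fat embryos, against 7.56, 7.20 and 7.22 in the wild-type control embryos, which overlap (log2 fold change 0.03 ± 0.19). Gata5, a zinc finger factor of heart and endoderm, gave 0.56 ± 0.17 and Isl1, a marker of the second heart field, 0.49 ± 0.15, each with the knockout high-fat embryos above the wild-type controls (adjusted p = 0.294 and 0.302). Irx4, a homeobox factor of the ventricle, gave −0.72 ± 0.30 (adjusted p = 0.424). Outside the list, Nkx2-6, a homeobox gene of the pharynx and outflow region, had 5.92, 5.99 and 5.76 in the knockout high-fat embryos, against 7.02, 7.21 and 7.09 in the wild-type control embryos (log2 fold change −1.22 ± 0.21, adjusted p = 0.0968).

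Markers of the neural crest, the migratory cells that form face, ganglia and outflow tract, had a median log2 fold change of −0.53 over 12 tested genes of 19 listed. Of the 12, 10 were below 0 and 6 had all knockout high-fat embryos under the wild-type controls, while 0 passed in limma (7 lower with an unadjusted p under 0.05, and Crabp1 with the array set as a block). Over all tested genes 42.9% were below 0, 5.67% were lower without overlap and 4.44% were lower at that unadjusted p. Sox10, the transcription factor that keeps migrating crest cells, had log2 signals of 7.89, 5.88 and 5.22 in the knockout high-fat embryos, against 8.90, 9.38 and 8.77 in the wild-type control embryos (log2 fold change −2.69 ± 0.67, adjusted p = 0.213). Tfap2b, an AP-2 factor of the crest and one of the factors that CITED2 is known to coactivate, had 6.92, 5.35 and 4.43 in the knockout high-fat embryos, against 7.81, 8.17 and 8.09 in the wild-type control embryos (−2.45 ± 0.59, adjusted p = 0.195). Both genes spread widely among the knockout high-fat embryos, with replicate 1 nearest to the wild-type controls. Crabp1, a retinoic acid binding protein of crest and hindbrain, was tight in both groups, with 9.66, 9.69 and 9.80 in the knockout high-fat embryos, against 10.56, 10.85 and 10.90 in the wild-type control embryos. Its log2 fold change was −1.06 ± 0.17 (adjusted p = 0.0788, and 0.0258 with the array set as a block). The related AP-2 gene Tfap2c, which is strong in surface ectoderm, gave 0.49 ± 0.13 (adjusted p = 0.235).

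**Figure D3:**
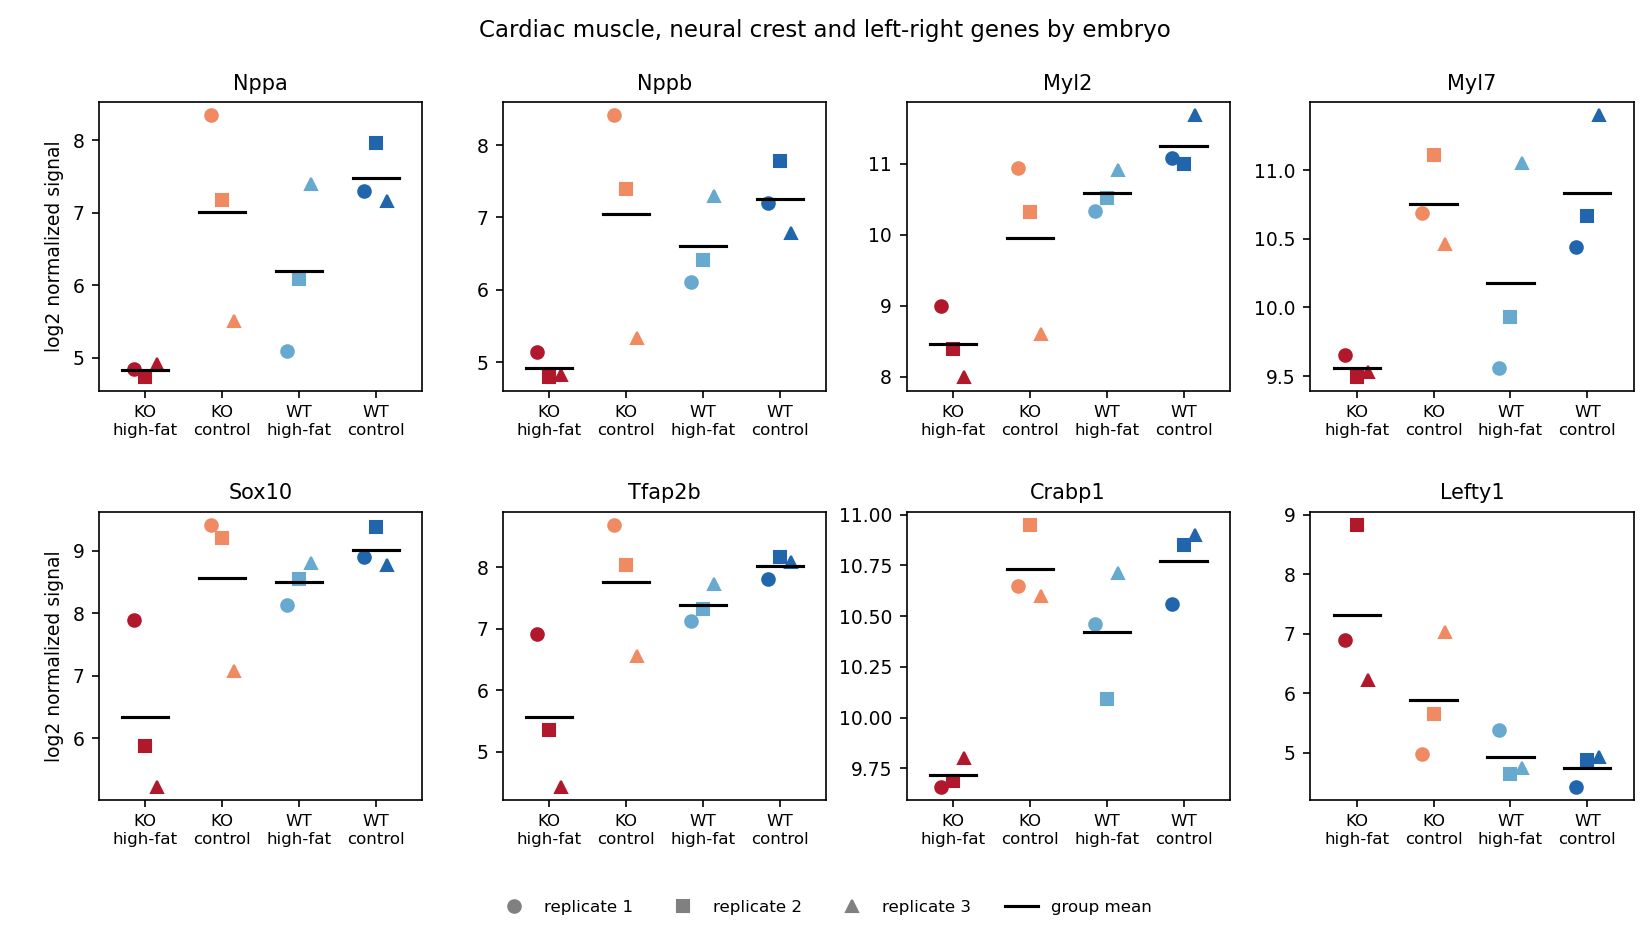
Log2 normalized signal (vertical axis) of 8 genes in each embryo of the 4 groups, with symbols for replicates and a line at the group mean. Nppa and Nppb lie at or below 5.14 in every knockout high-fat embryo, Sox10 and Tfap2b spread between replicates 1 and 3 of that group, and Lefty1 lies at 6.22 or above in it.

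In the brain and neural tube, En2 was joined by En1, its paralog in the same midbrain-hindbrain territory. En1 had log2 signals of 9.44, 8.22 and 7.59 in the knockout high-fat embryos, against 10.35, 10.10 and 9.85 in the wild-type control embryos, with no overlap (log2 fold change −1.69 ± 0.35, adjusted p = 0.149). Fgf17 and Fgf8, growth factors of the same organizing centre, gave −0.51 ± 0.14 and −0.24 ± 0.16 (adjusted p = 0.249 and 0.561), and Gbx2, a homeobox gene of the anterior hindbrain, gave 0.22 ± 0.19. Of 9 tested genes of the 14 on this organizer list, 8 were below 0, 3 did not overlap and lay lower, and the median was −0.24. In limma 1 passed (En2), against 0.0293% of all tested genes, and 3 were lower with an unadjusted p under 0.05. Over the wider neural tube and brain list, 14 of 24 genes were tested, 10 were below 0, 7 did not overlap and lay lower, 0 passed in limma (5 lower with an unadjusted p under 0.05) and the median was −0.28. The shares over all tested genes were 42.9% below 0, 5.67% lower without overlap and 4.44% lower at that p. Its members with the smallest p were the forebrain ligand Wnt8b (−1.36 ± 0.25), the ventral homeobox gene Nkx2-2 (−0.98 ± 0.24), the eye field gene Rax (−1.10 ± 0.30) and the hindbrain segment gene Egr2 (−0.86 ± 0.34), with adjusted p of 0.107, 0.203, 0.250 and 0.402.

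Along the body axis, the Hox genes, which set anterior-posterior identity, had 22 tested members of 27 listed, with 15 below 0, 7 separated and lower, 1 separated and higher, 0 passing in limma (1 higher and 8 lower with an unadjusted p under 0.05) and a median of −0.49. All tested genes gave 42.9% below 0, 5.67% separated and lower, and 11.1% separated and higher. At that unadjusted p, 7.26% of all tested genes were higher and 4.44% lower. Hoxd3 had 7.56, 7.30 and 7.22 in the knockout high-fat embryos, against 8.24, 8.65 and 8.75 in the wild-type control embryos (log2 fold change −1.19 ± 0.27, adjusted p = 0.171). Hoxa3 gave −0.76 ± 0.17, Hoxa9 −1.71 ± 0.40 and Hoxa7 −0.83 ± 0.22, and the highest value of the list was 0.47 for Hoxb6. The median of the Hox list was −0.26 within array set A, −0.86 within set B and −0.29 without knockout high-fat replicate 3.

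Of the somite list, 8 of 17 genes were tested, 7 were below 0, 4 were separated and lower, and the median was −0.35. In limma 0 passed (4 lower with an unadjusted p under 0.05). Of all tested genes, 42.9% were below 0, 5.67% were separated and lower, and 4.44% were lower at that p. Uncx and Foxc2 were detected in no knockout high-fat embryo and so were tested only through the group where they are high; of the 5 members detected on all 6 arrays, 2 were separated and lower (5.12% of such genes). Meox1, a homeobox gene of the somite, had log2 signals of 9.75, 9.79 and 9.51 in the knockout high-fat embryos, against 10.46, 10.56 and 10.36 in the wild-type control embryos (log2 fold change −0.78 ± 0.14, adjusted p = 0.0968, and 0.0254 with the array set as a block). Uncx, a homeobox gene of the posterior part of each somite, was at least 1.72-fold lower (−1.08 ± 0.22, adjusted p = 0.120). Tcf15, a helix-loop-helix factor of paraxial mesoderm, gave −0.68 ± 0.23, and Foxc2, a forkhead factor of the sclerotome, gave −0.47 ± 0.16, or at least 1.30-fold (adjusted p = 0.327 for each). Tbx6, which marks the presomitic mesoderm, gave −0.23 ± 0.22 and overlapped between the groups, and its other probe gave 0.11.

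Genes of left-right signalling had log2 fold changes from 0.01 to 2.57. Nodal is the signal of the left lateral plate, Lefty1 its secreted inhibitor at the midline and Foxh1 the transcription factor that carries the signal to DNA. Lefty1 had log2 signals of 6.89, 8.83 and 6.22 in the knockout high-fat embryos, against 4.43, 4.87 and 4.93 in the wild-type control embryos. It was detected in 3 knockout high-fat and 0 wild-type control embryos, so by the bound on the group means it was at least 4.50-fold higher (log2 fold change 2.57 ± 0.61, adjusted p = 0.194). Lefty1 was thus tested only through the group where it is high. Foxh1 had 8.63, 8.48 and 8.60 in the knockout high-fat embryos, against 7.77, 6.86 and 6.57 in the wild-type control embryos (1.51 ± 0.35, adjusted p = 0.185), and Nodal had 6.35, 7.99 and 6.35 in the knockout high-fat embryos, against 6.01, 5.46 and 5.44 in the wild-type control embryos (1.26 ± 0.74, adjusted p = 0.524). These 3 were separated between the groups and none of them passed. Of 14 listed genes 8 were tested, all 8 had a log2 fold change above 0, and the median was 0.16, while 0 passed in limma (2 higher with an unadjusted p under 0.05). Over all tested genes, 42.9% were below 0 and 7.26% were higher at that p, and 11.1% had the knockout high-fat embryos above the wild-type controls without overlap. Dnah11 (0.06), Shh (0.05), Gdf1 (0.01) and Acvr2b (0.01) lay close to 0. Over the 6 members detected on all 6 arrays the median was 0.06, and over all such genes it was also 0.06.

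Genes outside these lists whose groups did not overlap are given by the smallest p. The lower ones included E030030I06Rik, with log2 signals of 5.49, 5.08 and 5.78 in the knockout high-fat embryos, against 7.70, 7.09 and 7.40 in the wild-type control embryos (−1.95 ± 0.30, adjusted p = 0.0607), and the zinc finger gene Zfp507 (−1.37 ± 0.21, adjusted p = 0.0676). Hebp2, a heme-binding protein, gave −0.93 ± 0.15 at its brighter probe (adjusted p = 0.0788) and 0.33 ± 0.21 at its other probe. On the higher side were 12 genes with log2 fold changes from 0.75 to 1.26 and adjusted p from 0.0607 to 0.107: Lats1, a kinase of the Hippo pathway, gave 1.20 ± 0.18, 1700007K13Rik gave 1.11 ± 0.16 (adjusted p = 0.0607 for each), and the tRNA deaminase subunit gene Adat2 gave 0.82 ± 0.14 (adjusted p = 0.0968). The others were Sct, which encodes the gut hormone secretin (1.26 ± 0.22), the peptidase genes Dpp4 (1.25 ± 0.24) and Cpm (0.75 ± 0.13), the cytochromes Cyp2s1 (0.89 ± 0.16) and Cyp4f15 (0.99 ± 0.18), the glycosyltransferase gene B3gnt7 (1.09 ± 0.21), the adhesion receptor gene Adgrb2 (0.79 ± 0.14), Pced1b (1.22 ± 0.22) and Igsf21 (1.04 ± 0.19). Lats1 and 1700007K13Rik were detected in no wild-type control embryo and so were tested only through the group where they are high. They were at least 1.64-fold and 1.54-fold higher. Sct had 10.42, 11.12 and 10.59 in the knockout high-fat embryos, against 9.71, 9.20 and 9.44 in the wild-type control embryos. The 12 were taken from genes whose knockout high-fat embryos all lay above the wild-type control embryos. That order was thus fixed by the choice.

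Markers of the visceral endoderm of the yolk sac, a tissue removed at dissection, were above 0 in all 20 tested genes of 25 listed. Their median log2 fold change was 0.81, 4 were separated between the groups and higher, against 11.1% of all tested genes, and 0 passed in limma (3 higher with an unadjusted p under 0.05, against 7.26%). The list mean was −0.31, 0.22 and 1.46 in knockout high-fat replicates 1 to 3, against −1.12, −0.64 and 0.11 in wild-type control replicates 1 to 3, so that the groups overlapped. The members with the smallest p were Tmprss2 (0.91), Dab2 (0.79), Apoc2 (0.68) and Apom (1.65), with adjusted p from 0.291 to 0.474. Amn, a subunit of the endocytic receptor of visceral endoderm, had 9.73, 10.61 and 12.13 in the knockout high-fat embryos, against 8.00, 8.85 and 9.90 in the wild-type control embryos (1.90 ± 0.94, adjusted p = 0.478). The summed normalized signal of the 25 genes on the array was 15100 to 51900 in knockout high-fat embryos, against 8850 to 22100 in wild-type control embryos. Afp and Fgb were undetected in both groups, and Cubn and Rbp4 in the wild-type control embryos also. The median was 0.37 without knockout high-fat replicate 3, and 0.83 within array set A and 1.60 within set B. Within 3 of the 4 groups the embryo with the higher yolk sac mean had the lower cardiac muscle mean. In knockout high-fat replicates 1 to 3 yolk sac means of −0.31, 0.22 and 1.46 stood beside cardiac means of −0.27, −0.74 and −1.03. In knockout control replicates 1 to 3 they were −0.58, 0.11 and 1.00 beside 0.60, 0.40 and −0.46, and in wild-type high-fat replicates 1 to 3 they were 0.65, 0.11 and −1.0 beside −0.21, 0.05 and 0.49. In wild-type control replicates 1 to 3 both ran the same way, with −1.12, −0.64 and 0.11 beside 0.35, 0.37 and 0.45. The part of these markers in the heart, crest and Hox values was not tested.

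The other tissues that a dissected embryo could carry had smaller medians. For trophoblast markers 7 of 15 genes were tested, with a median of 0.33, and the summed signal was 7050 to 9230 in knockout high-fat embryos, against 6740 to 8730 in wild-type control embryos. Their defining markers Elf5 and Tpbpa were undetected in both groups. Allantois and amnion markers had a median of 0.27 over 7 of 10 genes (summed signal 3260 to 4250 in knockout high-fat embryos, against 3060 to 3830 in wild-type control embryos), and decidua markers −0.04 over 7 of 11 (3620 to 4140 in knockout high-fat embryos, against 3850 to 4170 in wild-type control embryos). Primitive red cell genes gave a median of 0.06 over 12 of 18 genes, with a summed signal of 4380 to 15200 in knockout high-fat embryos, against 3410 to 10500 in wild-type control embryos, and Gata1 undetected in both groups.

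**Figure D4:**
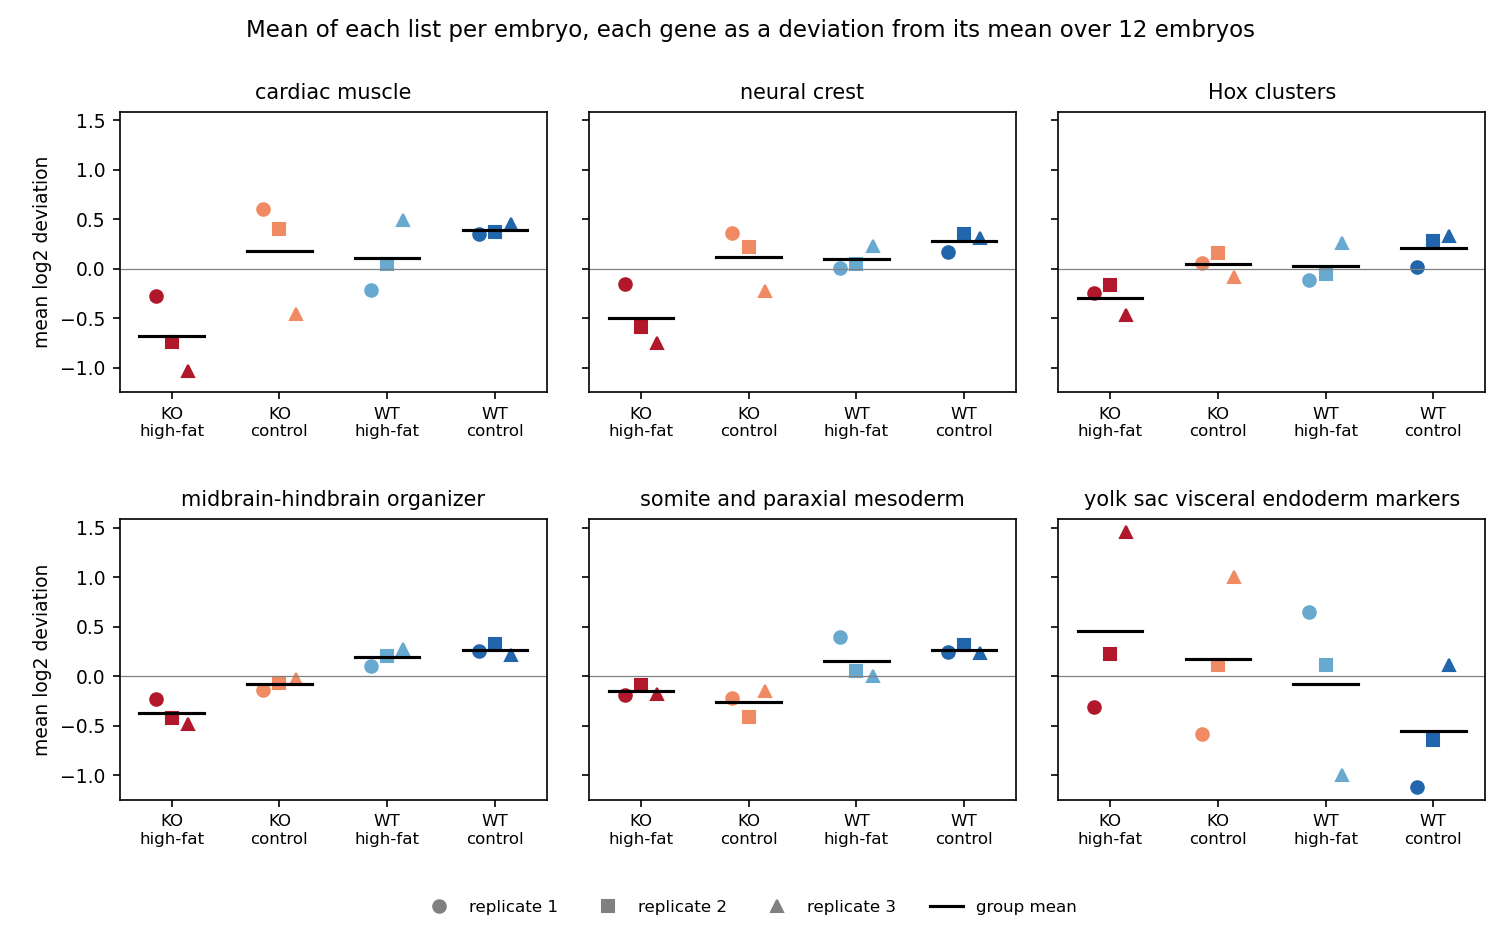
Mean of 6 gene lists in each embryo (vertical axis, log2, each gene as its deviation from its mean over the 12 embryos), by group, with symbols for replicates and a line at the group mean. The cardiac muscle mean lies between −1.03 and −0.27 in knockout high-fat embryos and between 0.35 and 0.45 in wild-type control embryos, and the yolk sac list, which overlaps, runs highest in knockout high-fat replicate 3 at 1.46.

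The interaction is the diet difference in knockout embryos minus that in wild-type embryos. It asks whether the mean of the 2 single-insult groups lay midway, and not whether each group did. Neither it nor the difference between knockout control and wild-type high-fat embryos is the comparison that chose the genes. Both share the model's estimate of the spread with that comparison, so their SE and p are not free of the choice. The interaction also uses the arrays of that comparison. No probe passed for the interaction in limma (0%), and 220 had an unadjusted p under 0.05 where chance gives 915. En2 was graded over the groups: it was 5.53, 5.76 and 5.36 in knockout control embryos and 6.13, 6.48 and 7.25 in wild-type high-fat embryos, and both groups lay between the 2 extremes on average. Its interaction was −0.20 ± 0.41 and its difference between knockout control and wild-type high-fat embryos −1.07 ± 0.29 (adjusted p = 1 and 0.956). Cldn10 had 7.73, 7.60 and 7.65 in knockout control embryos and 8.43, 8.34 and 8.09 in wild-type high-fat embryos, so that the knockout control embryos lay with the knockout high-fat ones (difference −0.63 ± 0.14, adjusted p = 0.956).

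Of the 12 lower genes named by passing or by smallest p, Cited2 apart, 7 had an interaction below 0 and 5 above. The interaction was −0.84 ± 0.69 for Myl2, −1.25 ± 0.56 for Acta1, −0.69 ± 0.29 for Nkx2-6 and −0.67 ± 0.24 for Crabp1, the last 3 with an unadjusted p under 0.05 and all with an adjusted p of 1. The 5 above 0 were Flrt1 (0.47 ± 0.26), E030030I06Rik (0.27 ± 0.42), Meox1 (0.20 ± 0.19), Hebp2 (0.20 ± 0.21) and Cldn10 (0.17 ± 0.20). Of the 12 higher genes, 5 had an interaction below 0 and 6 above, and 0 had an unadjusted p under 0.05. Crabp1 lay at 10.65, 10.95 and 10.60 in knockout control embryos, against 10.56, 10.85 and 10.90 in wild-type control embryos. Both single-insult means lay between the 2 extremes in 9 of the 12 lower and 10 of the 12 higher genes. In the others the knockout control mean lay at or past the knockout high-fat mean. These were Meox1 (9.67 against 9.68), E030030I06Rik (5.26 against 5.45), Hebp2 (5.81 against 6.16), Lats1 (5.98 against 5.85) and Adat2 (11.3 against 10.99). The median interaction over the cardiac muscle list was −0.54, and −0.29 over the neural crest list and −0.13 over the yolk sac list. It was −0.15 over each of the Hox, midbrain-hindbrain and neural tube lists. Over the somite list it was 0.18, and over the left-right list 0.11. Within the knockout control group, replicate 3 had a cardiac muscle mean of −0.46, against 0.60 and 0.40 for replicates 1 and 2, and without it 20 probes passed between the knockout high-fat and the wild-type control embryos, since the model draws its spread from all 4 groups. Between knockout control and wild-type high-fat embryos 6 probes passed (0.0328%), 3 of Cited2 and 1 each of Hebp2 (−1.42 ± 0.15), Adat2 (1.21 ± 0.14) and Lats1 (1.29 ± 0.18), with adjusted p of 0.00389, 0.00736 and 0.0436. All 4 genes are on chromosome 10 in the RefSeq annotation of GRCm38.p6, which holds 4.57% of protein-coding genes.

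**Figure D5:**
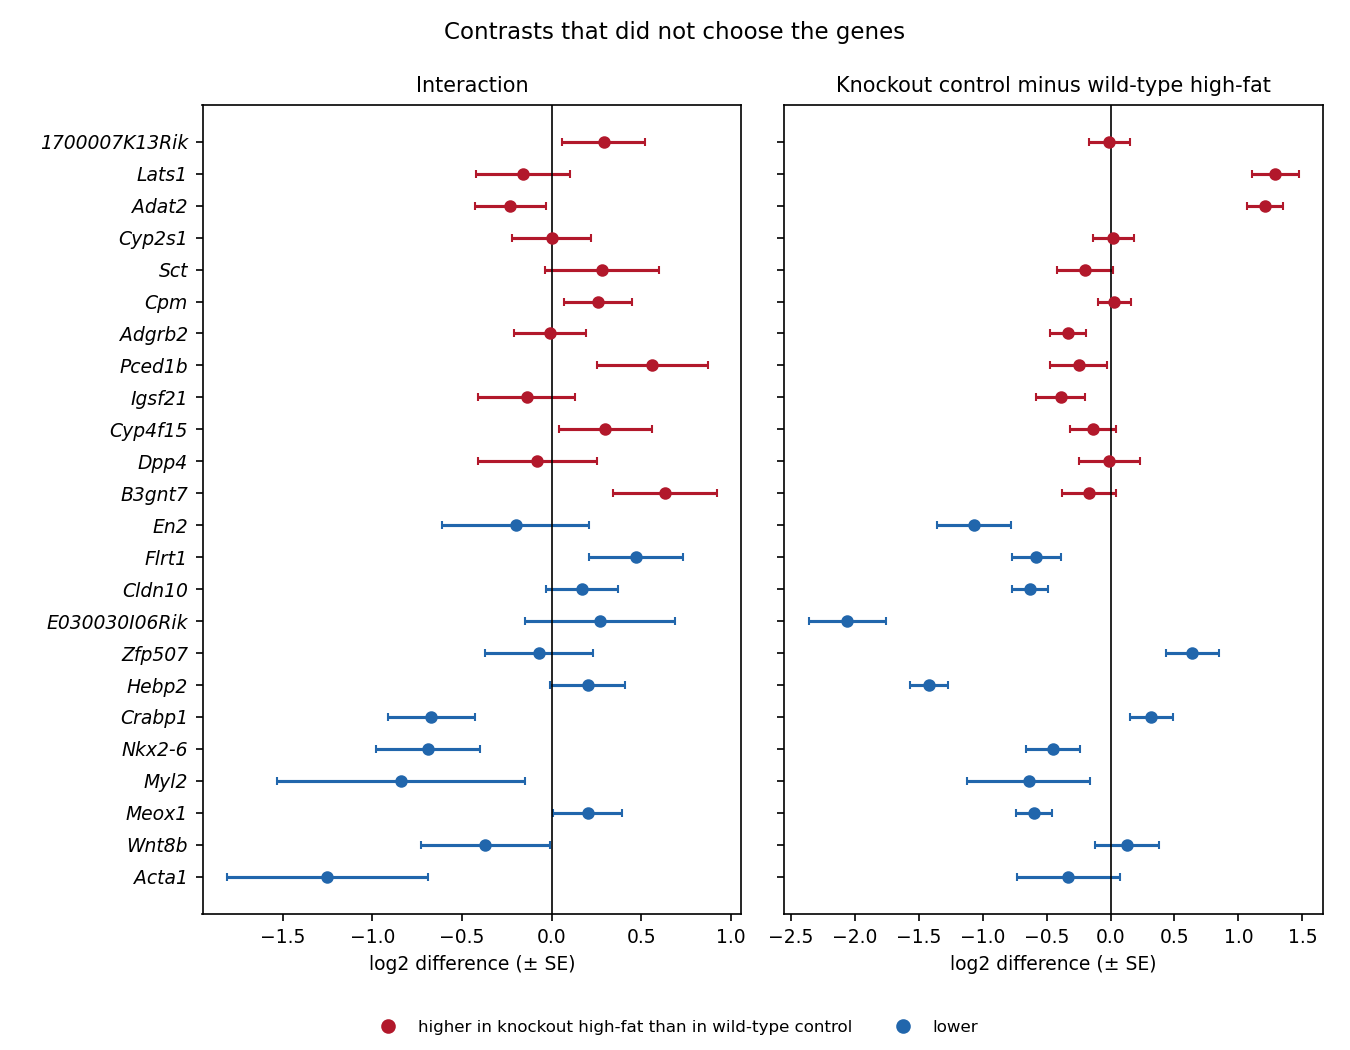
Log2 differences (horizontal axes, bars are the SE of the model) of the 24 named genes, 12 higher (red) and 12 lower (blue) in knockout high-fat than in wild-type control embryos, for the interaction on the left and for knockout control minus wild-type high-fat embryos on the right. Acta1 at −1.25 has the lowest interaction, and Lats1, Adat2 and Hebp2 have the passing differences on the right.

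Genes of metabolism had medians between −0.25 and 0.16. The list of hypoxia and glycolysis genes, which hypoxia-inducible factor drives, had a median of −0.25 over 21 tested genes of 28, with 17 below 0, 8 separated and lower, and 0 passing in limma (5 lower with an unadjusted p under 0.05). Of all tested genes 42.9% were below 0, 5.67% separated and lower, and 4.44% lower at that p. Pdk1, which keeps pyruvate from the mitochondria, gave −0.80 ± 0.20 (adjusted p = 0.213). Fatty acid uptake and oxidation genes had a median of 0.16 over 12 of 22 genes, with 9 above 0 and 0 passing in limma. Of the 12, 5 were separated and higher and 1 separated and lower, against 11.1% and 5.67% of all tested genes. The lowest value of the list was that of Ppargc1a, a coactivator of mitochondrial genes, at −1.0 ± 0.23 (adjusted p = 0.179). Ppargc1a was at least 1.53-fold lower, since no knockout high-fat embryo had it detected. It was thus tested only through the group where it is high. The list of cholesterol and fatty acid synthesis genes gave 0.03 over 15 of 23 genes, and the list of respiratory chain genes −0.03 over 20 of 23.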

How the data were processed

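The deposited signals were bead intensity values on a linear scale, exported by the authors with BeadStudio 3.2.6 per the submitters' processing notes, with detection p-values deposited beside them. The authors' deposited table of log2 values, whose normalization the labels do not state, served as an alternative. Signals of all 12 arrays were background-corrected and quantile-normalized with neqc (offset 16, limma 3.58.1, R 4.3.3). A probe was tested when detected (p under 0.01) on at least 3 of the 6 arrays compared. One mean per group was fitted to all 12 embryos with lmFit and eBayes, with Benjamini-Hochberg adjustment across all 18296 of these probes at 0.05. The number of arrays limits the precision. Gene names came from the platform annotation (34885 probes with 1 symbol, 18 with several, 10378 with none); the gene IDs of 34807 of these matched RefSeq, which changed 0 symbols. A gene was taken at its brightest tested probe.

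Named were Cited2, left-right genes where tested (1 listed gene was not analysed here), every passing gene, then genes without overlap by smallest p up to 12 in each direction, and up to 4 genes of each list described. Myl7, Actn2, Myh6, Ttn, Actc1, Atp2a2, Tpm1, Nkx2-5, Gbx2, Hoxb6, Tbx6 and Amn fall outside this rule and were chosen after their values were seen. The members, the gene lists (33) and the array sets were chosen with earlier results of these data known. Lists are described by counts and medians, with no test. P-values measure the spread between embryos. The array sets were divided at the largest gap (0.967 points) in each array's median bead-to-bead coefficient of variation (probes with a signal over 500), a minimum chosen after seeing the data.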

Additional observations from a re-analysis of the deposited data

How the results depend on the processing

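The count of 6 passing probes became 50 with the replicate block, 32 with the array set as a block, 15 with median scaling, 14 with the authors' processed values, 0 among probes detected on all 6 arrays and 2264 with array weights, and lay between 4 and 20 when 1 embryo was left out (20 without knockout control replicate 3, 17 without wild-type high-fat replicate 3). The filter on all 6 arrays left out the passing probes of Cited2, En2 and Flrt1, which were undetected on some knockout high-fat arrays. It kept that of Cldn10, whose adjusted p was 0.09 there (limma). Deviations of same-numbered knockout high-fat and wild-type control embryos correlated at 0.63, −0.21 and 0.60 for replicates 1 to 3. Between knockout high-fat replicate 1 and wild-type control replicate 3 the correlation was −0.6, and between replicates 3 and 1 it was −0.7. In every group replicate 1 was in array set A and replicate 3 in set B, so the replicate number carries part of the array set. Replicate numbers were not treated as pairs in the main model. The numbers in the titles, of which the 2 groups share none, left the count at 6 as a random block. Between knockout control and wild-type high-fat embryos the count of 6 became 2 among probes detected on all 6 arrays and 2062 with array weights, and for the interaction it was 0 in every alternative run. The cause of these shifts was not tested. Median scaling moved the median of all genes to −0.09, against 0.05, so values under it are to be read from there.

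En2 passed in each alternative that tested it (limma, adjusted p from 1.86e-05 to 0.0417). Flrt1 ILMN_2708133 lost its call in 10 settings, among them the 6 arrays alone (0.0565), no background correction (0.0531), the Y-linked covariate (0.118), leaving out knockout high-fat replicate 2 (0.0659), and leaving out any 1 of the wild-type control embryos (0.0879, 0.104 and 0.102). Cldn10 ILMN_2515816 lost it in 15, among them the 6 arrays alone (0.137), the Y-linked covariate (0.118) and 9 of the fits that leave out 1 embryo (0.0523 to 0.179). Signs turned for the interaction of En2 (0.10 without background correction, 0.03 with median scaling, 0.13 with offset 50, 0.12 with array weights, −0.49 to 0.11 leaving out 1 embryo), of Cited2 ILMN_2683980 (0.16 with median scaling, −0.27 to 0.16 leaving out 1) and of Cited2 ILMN_2905866 (−0.48 to 0.03 leaving out 1), and for Hebp2 at its other probe (0.33).

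Leaving out 1 embryo, list medians ran from −1.18 to −0.65 for cardiac muscle, −0.60 to −0.29 for Hox and −0.43 to −0.33 for somite genes. They ran from −0.47 (without wild-type control replicate 3) to −0.13 (without wild-type control replicate 2) for neural tube genes, from −0.34 to −0.15 (without wild-type control replicate 1) for midbrain-hindbrain genes, from 0.14 to 0.28 (without wild-type control replicate 1) for left-right genes and from 0.37 (without knockout high-fat replicate 3) to 1.18 for yolk sac genes. Within set B they were −1.36 for cardiac muscle, 1.60 for yolk sac, −0.86 for Hox, −0.41 for midbrain-hindbrain and −0.54 for neural tube genes. Within set A they were −0.26 for Hox and −0.12 for hypoxia genes. With median scaling they were −0.67 (Hox), −0.49 (somite), −0.45 (midbrain-hindbrain) and −0.35 (hypoxia), and with the Y-linked covariate −0.27 (Hox), −0.41 (midbrain-hindbrain) and −0.10 (hypoxia). Among probes detected on all 6 arrays they were −0.32 (Hox) and −0.23 (somite). Somite genes had −0.19 without background correction and −0.23 with offset 50, and hypoxia genes −0.15 with the replicate block and array set as a block. Signals near background limit the folds of dim genes.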

Other observations

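Gut endoderm markers had a median log2 fold change of 0.29 over 16 tested genes, with 12 above 0 and 0 passing in limma (3 higher and 1 lower with an unadjusted p under 0.05, against 7.26% and 4.44% of all tested genes). Foxa3, a forkhead factor of gut and liver, gave 1.18 ± 0.25, and Trh, which encodes thyrotropin-releasing hormone, gave 1.48 ± 0.33 (adjusted p = 0.149 and 0.167). The gut hormone gene Pyy gave −1.31 ± 0.26 (adjusted p = 0.107). Among p53 targets, 10 of 12 tested genes were above 0, the median was 0.10, and Phlda3, an inhibitor of AKT signalling, gave 0.81 ± 0.18 (adjusted p = 0.167). The partners of CITED2 had a median of 0.02 over 10 tested genes, with Crebbp, which encodes CBP, at −1.34 ± 0.40 (adjusted p = 0.291).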
